A study of Mus musculus with 4 samples.

Results

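Lipid droplet coat and assembly genes were followed through the OSKM treatment of cardiac mesenchymal progenitors (CMPs). They were 9 genes chosen by name: the perilipins Plin1, Plin2, Plin3, Plin4 and Plin5, the droplet fusion factor Cidec, and the droplet assembly genes Fitm1, Fitm2 and Bscl2. A probe belonged to a gene if the array's gene name, or an older synonym of it, was that gene, and all 9 had at least 1 probe, 11 probes in all. Of these genes, 8 were well above background on at least 1 array and were among the 16657 genes compared, and Fitm1 was not. The CMPs were Sca-1+ cells cultured from the atria of adult C57BL/6 mouse hearts. The CMP control was untreated and labelled day 0. The other cells carried Oct3/4, Sox2, Klf4 and c-Myc (OSKM) delivered by Sendai virus, and RNA was taken at day 4, day 6 and day 8 in a reprogramming medium from which leukemia inhibitory factor had been left out. Each condition had 1 single-colour Agilent array, so no test between conditions was possible, and the number of arrays limits the precision. An error given as ± is 1 SD on the log2 scale from the scanner software's error model, and it covers the array alone, not cultures or RNA preparations. The factors, the Sendai virus that carried them and the time in culture cannot be told apart in this design. The medium of the control cells at harvest is not given in the sources used here. A difference in medium can therefore not be told apart from the factors, the virus or the time either. In RNA from a whole culture, a change in the number of cells of a type cannot be told apart from a change in RNA per cell.

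A lipid droplet is a core of neutral lipid, mainly triacylglycerol and sterol ester, enclosed by a phospholipid monolayer that carries a protein coat. The coat protects the stored lipid from lipases and recruits them when fat is mobilised. Droplets arise in the endoplasmic reticulum, where seipin (the product of Bscl2) and the FIT proteins act, and in white adipocytes they grow by fusion into a single large droplet, in which Cidec (also called Fsp27) takes part. Perilipins differ in where they are made: Plin1 and Plin4 are typical of adipocytes, Plin2 and Plin3 are found in most cells, and Plin5 is typical of oxidative tissues such as heart muscle.

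Promoter sequences are shown for the 3 genes that changed most (Plin1, Plin4 and Cidec), and for Plin2 and Plin3, which were bright in the control, so that their letters can be set beside their levels. They are the 250 bases before the annotated start on the gene's own strand, from RefSeq on GRCm38.p6. Capitals mark exact matches, on either strand, to the nuclear receptor core AGGTCA, the C/EBP motif TTGCNNAA, the Klf motif GGGNGTGG, the E-box CACGTG or the TATA box TATAAA.
Plin1, chr7:79732777-79733026, minus strand: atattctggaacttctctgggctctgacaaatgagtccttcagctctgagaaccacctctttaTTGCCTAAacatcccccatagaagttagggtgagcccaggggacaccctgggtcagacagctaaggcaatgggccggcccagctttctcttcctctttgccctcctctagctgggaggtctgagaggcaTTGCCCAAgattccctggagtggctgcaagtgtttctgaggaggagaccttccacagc
Plin4, chr17:56109783-56110032, minus strand: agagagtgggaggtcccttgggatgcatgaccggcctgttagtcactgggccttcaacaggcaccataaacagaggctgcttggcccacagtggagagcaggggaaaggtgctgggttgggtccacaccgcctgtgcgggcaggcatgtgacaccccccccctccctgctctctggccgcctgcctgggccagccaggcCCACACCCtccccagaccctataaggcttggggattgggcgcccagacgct
Cidec, downstream start, chr6:113434765-113435014, minus strand: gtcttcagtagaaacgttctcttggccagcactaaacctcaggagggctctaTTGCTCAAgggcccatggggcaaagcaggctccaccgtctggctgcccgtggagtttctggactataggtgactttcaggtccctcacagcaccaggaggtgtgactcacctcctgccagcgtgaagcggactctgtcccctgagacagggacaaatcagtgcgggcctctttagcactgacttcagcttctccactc
Cidec, upstream start, chr6:113435761-113436010, minus strand: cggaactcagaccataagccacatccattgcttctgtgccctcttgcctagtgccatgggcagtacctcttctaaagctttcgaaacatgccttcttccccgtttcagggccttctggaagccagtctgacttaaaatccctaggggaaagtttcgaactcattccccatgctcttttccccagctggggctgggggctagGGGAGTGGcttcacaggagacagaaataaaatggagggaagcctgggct
Plin2, chr4:86670060-86670309, minus strand: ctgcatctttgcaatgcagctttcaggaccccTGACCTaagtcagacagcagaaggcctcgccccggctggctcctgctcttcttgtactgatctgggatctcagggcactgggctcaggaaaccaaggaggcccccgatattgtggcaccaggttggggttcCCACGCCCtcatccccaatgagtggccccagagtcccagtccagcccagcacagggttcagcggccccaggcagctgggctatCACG
Plin3, chr17:56290512-56290761, minus strand: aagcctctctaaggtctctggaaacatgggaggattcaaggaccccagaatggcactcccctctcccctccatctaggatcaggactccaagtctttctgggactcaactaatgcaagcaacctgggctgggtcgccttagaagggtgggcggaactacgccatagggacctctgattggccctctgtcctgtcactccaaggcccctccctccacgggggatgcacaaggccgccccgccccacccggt

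Over all 32851 promoters of the table, searched with 50 further bases after the start, TTGCNNAA was present in 10.8%. Of the 13 promoters of the 9 genes, 2 held it: that of Plin1 at 187 and 58 bases before its start, and that of Cidec at 198 bases before its downstream start. The Klf motif was in 17.6% of all promoters and in 5 of these 13, 1 each of Plin2, Plin4, Plin5, Cidec and Bscl2. Plin4 held it 51 bases before the start. The core AGGTCA, in 16.3% of all promoters, was found in 4 of the 13, which belong to Plin2, Plin5 and Bscl2. The E-box was in 7.15% of all promoters and, among the genes here, for Plin2 alone, where it begins 4 bases before the start and runs past the end of the printed stretch. A PPAR element in its exact form, 2 copies of AGGTCA separated by 1 base, was in 0.0396% of all promoters and in none of the 13 promoters of these genes, and the TATA box, in 13.6% of all, was also in none. Plin3 held none of the motifs that capitals mark. These are matches of letters in short windows and say nothing of binding.

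Plin4 reached its full level by day 4, whereas Plin1 and Cidec made most of their rise after it. Plin2, and Fitm2 as the mean of its probes, were between 2-fold and 3-fold above the control at day 8. Plin3 and Bscl2 changed by less than 2-fold on every day. Plin1 encodes the adipocyte coat protein that holds lipases away from stored fat. Its probe (mm9 chr7:86866112-86866171) gave a processed signal of 5.39 on the control array, where it was not well above background, 60.6 at day 4, then 4583 and 7124 on the last arrays. The control was lowest, day 4 was low, and the last arrays were high. It was at least 5.80-fold higher than the control at day 4, and the bound was 419-fold at day 6 and 645-fold at day 8. These bounds set the dim control value at 10.5, the lowest signal well above background on that array, after each array was scaled by its 75th percentile. Between the treated arrays, where Plin1 was measured throughout, it rose by 6.18 ± 0.21 on the log2 scale from day 4 to day 6 (72.3-fold) and stood a further 0.62 ± 0.20 higher at day 8 than at day 6 (1.54-fold). Most of the rise after day 4 thus fell in the step to day 6, and the later step was about 3 times its error.

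Plin4 encodes a perilipin that coats small nascent droplets in adipocytes. Its signal (mm9 chr17:56240055-56240114) was 107.4 in the control and 16292, 20985 and 19858 at days 4, 6 and 8. The control array was low and the treated arrays were all high and close together. The log2 change from the control was 7.25 ± 0.21 at day 4 (152-fold), 7.55 ± 0.21 at day 6 (187-fold) and 7.45 ± 0.21 at day 8 (175-fold). By day 4 Plin4 had covered 97.3% of its log2 change at day 8, and the further change from day 4 to day 8 was 0.20 ± 0.20. Of all genes, 99.9% changed less from the control to day 4. On that array Plin1 had a signal of 60.6.

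Plin2, the coat protein of droplets in most cells, was already bright in the control. Its signal (mm9 chr4:86302847-86302906) was 5069 in the control and 11727, 14133 and 13488 at days 4, 6 and 8. It rose by 1.21 ± 0.20 on the log2 scale by day 4 (2.32-fold), and stood 1.42 ± 0.20 above the control at day 6 and 1.33 ± 0.20 at day 8 (2.52-fold). The treated arrays differed from each other by no more than 0.20 ± 0.20. Like Plin4 it had made 90.9% of its day 8 change by day 4, on a much smaller scale. With each array scaled by its median, Plin2 stood 1.07 above the control at day 4 and 1.07 at day 8, close to 2-fold. The median of all genes was then -0.15 at day 4 and -0.30 at day 8.

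Plin3 encodes a coat protein that moves from the cytosol onto new droplets. Its signal (mm9 chr17:56418429-56418488) was 16375, 15399, 15570 and 14175 on the control, day 4, day 6 and day 8 arrays. The 4 arrays lay close together. The change from the control on the log2 scale was -0.09 ± 0.20 at day 4, and -0.13 ± 0.20 and -0.29 ± 0.20 at the later days. Its sign depended on the scaling: with quantile normalization the day 4 and day 6 values were 0.07 and 0.07, and with normexp background correction added the day 8 value was 0.01, so no direction is given for Plin3.

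Plin5 encodes the perilipin that links droplets to mitochondria. Its signal (mm9 chr17:56251025-56251084) was 2.99 in the control and 9.03 at day 4, neither well above background, then 18.5 at day 6 and 20.7 at day 8. It was detected on the last arrays only, close to background. It was at least 1.69-fold higher than the control at day 6 and at least 1.88-fold at day 8, so that neither bound reached 2-fold. From day 6 to day 8 it changed by 0.15 ± 0.39, less than its error.

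**Figure D1:**
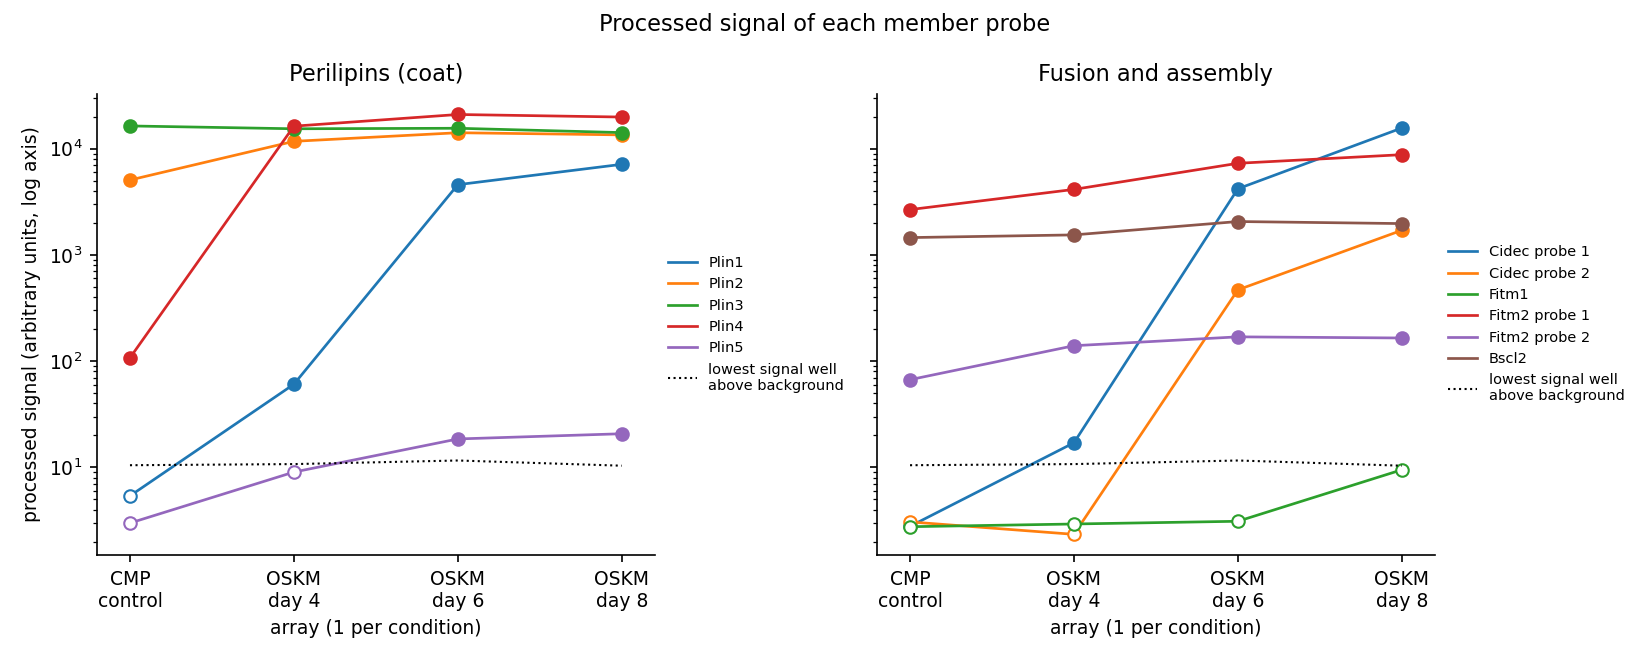
Processed signal (arbitrary units, log axis) of each of the 11 probes on the 4 arrays, 1 array per condition, with perilipins on the left and fusion and assembly genes on the right. Open points were not well above background, and the dotted line joins the lowest signal well above background on each array, from 10.4 to 11.6. Plin4 reached 16292 at day 4, whereas Plin1 and Cidec became bright at day 6; signals of different probes are not comparable as amounts.

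Cidec, which joins droplets at their contact sites and moves lipid from the smaller to the larger, had 2 probes. Probe 1 (mm9 chr6:113374630-113374689) read 2.79 in the control, not well above background, 17.0 at day 4, 4193 at day 6 and 15657 at day 8. Probe 2 (mm9 chr6:113378116-113378175) read 3.07 and 2.34 in the control and at day 4, both not well above background, then 469 at day 6 and 1705 at day 8. Both probes were dim or near background up to day 4 and bright afterwards. Probe 1 was at least 1.63-fold higher than the control at day 4, at least 384-fold at day 6 and at least 1417-fold at day 8. For probe 2 the bounds were 42.9-fold at day 6 and 154-fold at day 8, lower because its bright values were lower.

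From day 4 to day 6, Cidec probe 1 rose by 7.88 ± 0.32 on the log2 scale (235-fold), and probe 2 was at least 41.8-fold higher. From day 6 to day 8, both were measured on both arrays, and they rose by 1.88 ± 0.20 (3.69-fold) and 1.85 ± 0.20 (3.60-fold). The probes thus gave the same late step within their errors. Cidec was the only member to pass 2-fold between day 6 and day 8, a step that 1.09% of all genes passed upward. In the same step Plin1 changed 1.54-fold, and the day 6 and day 8 values of Plin2, Plin3, Plin4 and Bscl2 differed by less than 1 SD.

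Fitm2 encodes an endoplasmic reticulum protein needed for normal droplet budding. Its probe 1 (mm9 chr2:163292132-163292191) read 2670, 4137, 7287 and 8781 on the control, day 4, day 6 and day 8 arrays. Probe 2 (mm9 chr2:163294444-163294503) read 66.9, 140, 169 and 165. Both were lowest in the control. They differed in course: probe 1 stood 0.63 ± 0.20 above the control on the log2 scale at day 4 and 1.64 ± 0.20 at day 8, whereas probe 2 stood 1.07 ± 0.21 above it at day 4 and 1.23 ± 0.21 at day 8. From day 4 to day 8, probe 1 changed by 1.01 ± 0.20 and probe 2 by 0.16 ± 0.21. As the mean of its probes, Fitm2 was 1.80-fold above the control at day 4, 2.52-fold at day 6 and 2.70-fold at day 8, with a log2 change of 1.43 ± 0.15 at day 8. With each array scaled by its median, that day 8 change was 1.17.

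Fitm1, the relative of Fitm2 made mainly in muscle, read 2.76, 2.93, 3.11 and 9.49 on the 4 arrays and was not well above background on any of them, so no fold is given. Its probe spans 427 bases of chromosome 14 (mm9 chr14:56194734-56195160), more than its length of 60 bases, so that its ends match separate stretches of the genome. Bscl2, whose product seipin forms rings at the sites where droplets leave the endoplasmic reticulum, read 1456, 1543, 2062 and 1972 (mm9 chr19:8920973-8921032). It was somewhat higher on the last arrays. Its change was 0.09 ± 0.20 at day 4, 0.44 ± 0.20 at day 6 (1.36-fold) and 0.36 ± 0.20 at day 8 (1.28-fold), all under 2-fold. When each array was scaled by its median, the day 4 change was -0.06 and the day 8 change 0.09, a scale on which the median of all genes stood at -0.30 at day 8.

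Probe letters are given for 3 of these calls, each a 60-base run from the array files with an open reading frame: the Cidec probe that was dim up to day 4, the Fitm1 probe that stayed dim, and the Bscl2 probe that was bright throughout. No other probe of the array had any of these sequences.
Cidec probe 2: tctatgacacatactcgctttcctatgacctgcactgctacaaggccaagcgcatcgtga
Fitm1: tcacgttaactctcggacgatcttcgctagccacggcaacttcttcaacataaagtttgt
Bscl2: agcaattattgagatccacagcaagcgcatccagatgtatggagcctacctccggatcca

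**Figure D2:**
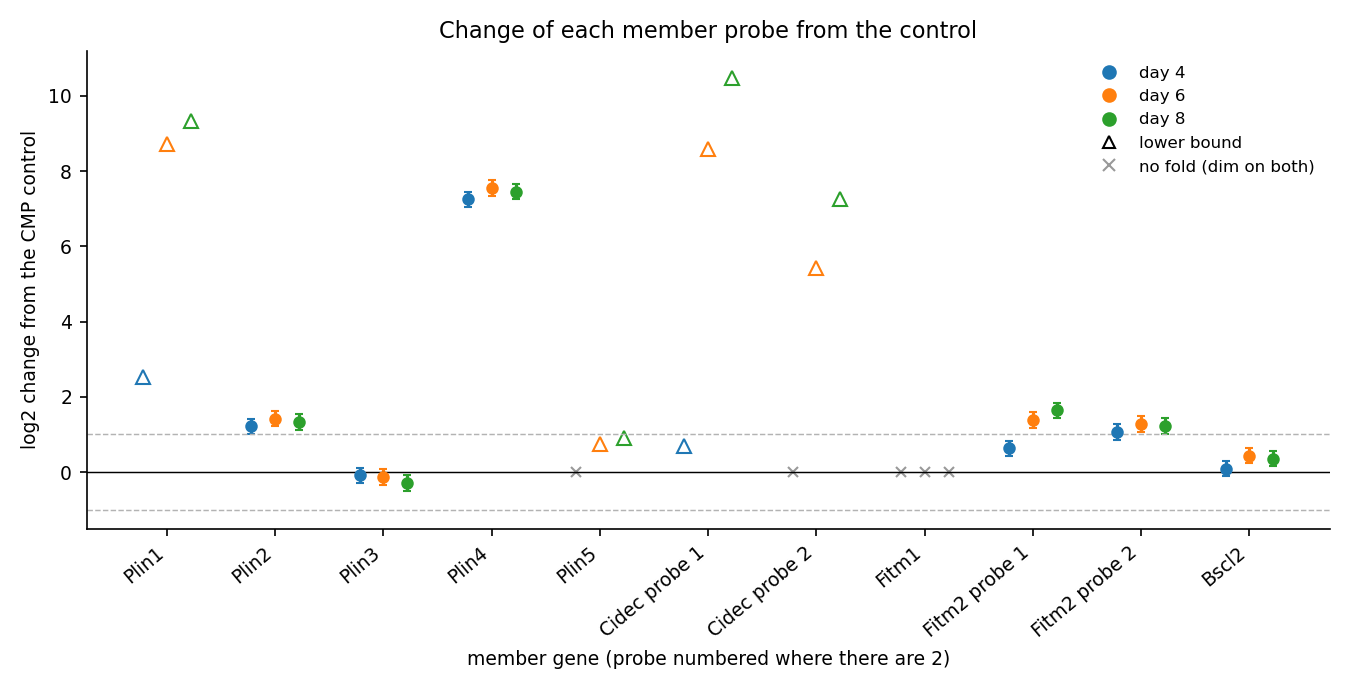
Change of each probe from the CMP control at days 4, 6 and 8, on the log2 scale, with ± 1 SD of the array error. Open triangles are lower bounds for probes dim on the control array, crosses mark probes dim on both arrays, and dashed lines mark 2-fold. Plin4 lies above 7 on all days, Plin1 and Cidec climb from day 4 to day 8, and Plin3 lies within 0.3 of 0.

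Counted together, 3 of the 8 measured genes (Plin1, Plin2 and Plin4) were at least 2-fold higher at day 4 than in the control, where 9.73% of all genes were. With normexp background correction and quantile normalization, Plin1 changed by 0.99 on the log2 scale at day 4 and its call was lost, which left 2. At day 6, 5 were higher (Cidec and Fitm2 in addition), against 10.8% of all genes, and the same 5 were higher at day 8, against 11.9%. None was 2-fold lower on any day, where 8.12%, 9.78% and 10.5% of all genes were at days 4, 6 and 8. From day 4 to day 6, Plin1 and Cidec passed 2-fold upward, as did 1.95% of all genes. The median log2 change of the 8 genes from the control was 1.16 at day 4, 1.99 at day 6 and 2.07 at day 8 with dim values as measured. It was 0.61, 1.37 and 1.38 with dim values set at their bound, and the median of all genes was -0.01, -0.04 and -0.03.

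**Figure D3:**
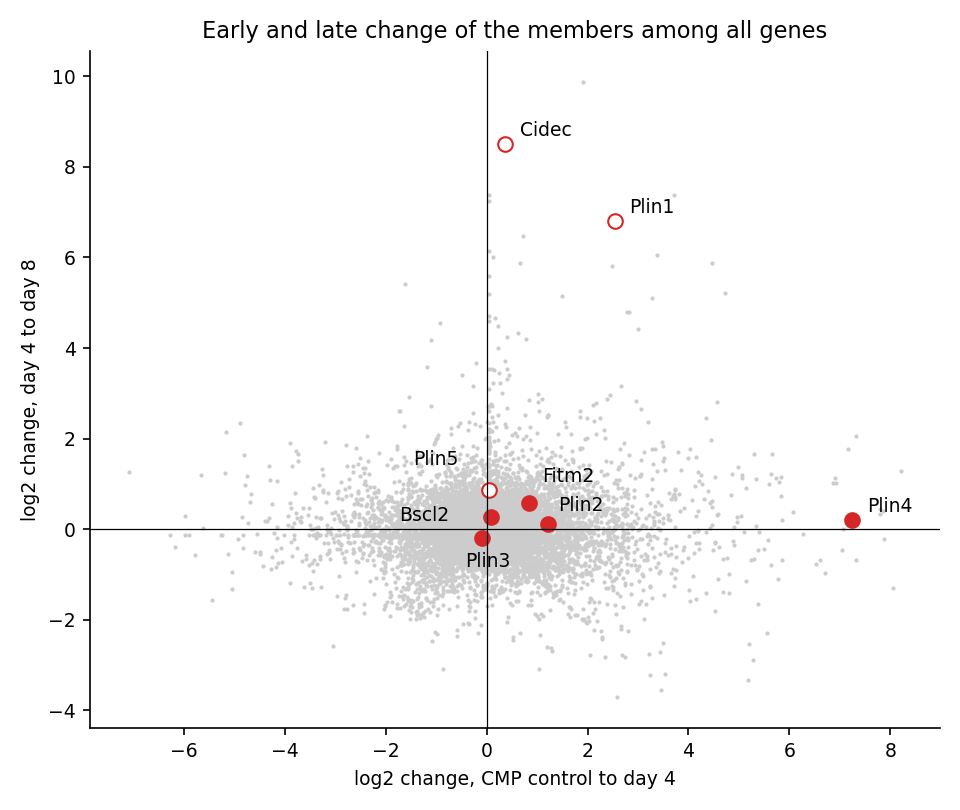
Log2 change from the CMP control to day 4 (horizontal) and from day 4 to day 8 (vertical) for all 16657 genes (grey) and the 8 measured members (red), with dim values set at the lowest signal well above background. Open circles had no probe well above background on at least 1 of these arrays, so their place is a bound. Plin5 was dim on the control and the day 4 arrays, so its horizontal place is neither a measured change nor a bound. Plin4 lies far right at 7.25, Plin1 lies high at 6.80 with Cidec above it, and both axes use the day 4 array.

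The genes whose course over the 4 arrays was nearest to each wide-ranging member were found by the Euclidean distance between log2 values, each gene centred on its own mean. For Plin1 they were Gpd1, which makes the glycerol backbone of fat (distance 0.87), the adipokine gene Adipoq (0.92) and the amino acid transporter gene Slc36a2 (1.19). Cidec was nearest to Wfdc21 (1.46), Slc36a2 (1.61) and Cfd, which encodes adipsin (2.14). Plin4 was nearest to a different set: the protease gene Adamts15 (0.37) and the keratinocyte genes Krtdap (0.47) and Krt90 (0.53). Adamts15 read 19.1, 2560, 2676 and 2696, a step at day 4 and a plateau as for Plin4. For Plin5 the nearest were Fmo1 (0.09), Necab3 (0.11) and Csta2 (0.17). Among the members, Plin2 and Fitm2 had the closest courses, 0.34 apart. The distances use dim values as measured, and these are not levels: Plin1, Plin5 and Cidec were not well above background in the control, nor were Adipoq, Slc36a2, Wfdc21, Cfd, Krtdap and Krt90, and at day 4 Plin5, Cidec probe 2, Slc36a2 and Wfdc21 were still not so. With 4 arrays, such distances and ranks are descriptions only.

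Other lipid droplet genes were listed with the same earlier results of these arrays known: 36 genes, of which 34 had a probe and were measured. At day 4, 4 were at least 2-fold higher than in the control and 3 were lower, where 9.73% and 8.12% of all genes were, so that both counts were near the share of all genes. At day 6, 9 were higher and 1 lower (10.8% and 9.78% of all genes), and at day 8, 9 were higher and none lower (11.9% and 10.5%). Their median log2 change at day 8 was 0.32, against -0.03 for all genes. The largest measured rises at day 8 were those of triacylglycerol synthesis genes and a lipase. Dgat2, which catalyses the last step of triacylglycerol synthesis, read 579, 1624, 37110 and 61239 and rose by 6.65 ± 0.20. Gpat3, which starts glycerolipid synthesis, rose by 3.93 ± 0.20 (259, 342, 2040 and 4174). Lipe, the hormone-sensitive lipase gene, rose by 3.12 ± 0.23 (34.5, 62.3, 174 and 317). Agpat2, which acts after Gpat3, rose by 2.85 ± 0.14 (2390, 2534, 11854 and 18200). On the log2 scale, all 4 climbed more from day 4 to day 6 than in the steps before and after, as Plin1 and Cidec probe 1 did after day 4. Cidea, a relative of Cidec known from brown fat, was at least 8.82-fold higher at day 8, but its course of 2.99, 152, 164 and 97.5 was already up at day 4. Pnpla3 was at least 10.2-fold higher at day 8. The others that passed 2-fold were Pnpla2, the adipose triglyceride lipase gene, Lpin1 and Mettl7a1.

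**Figure D4:**
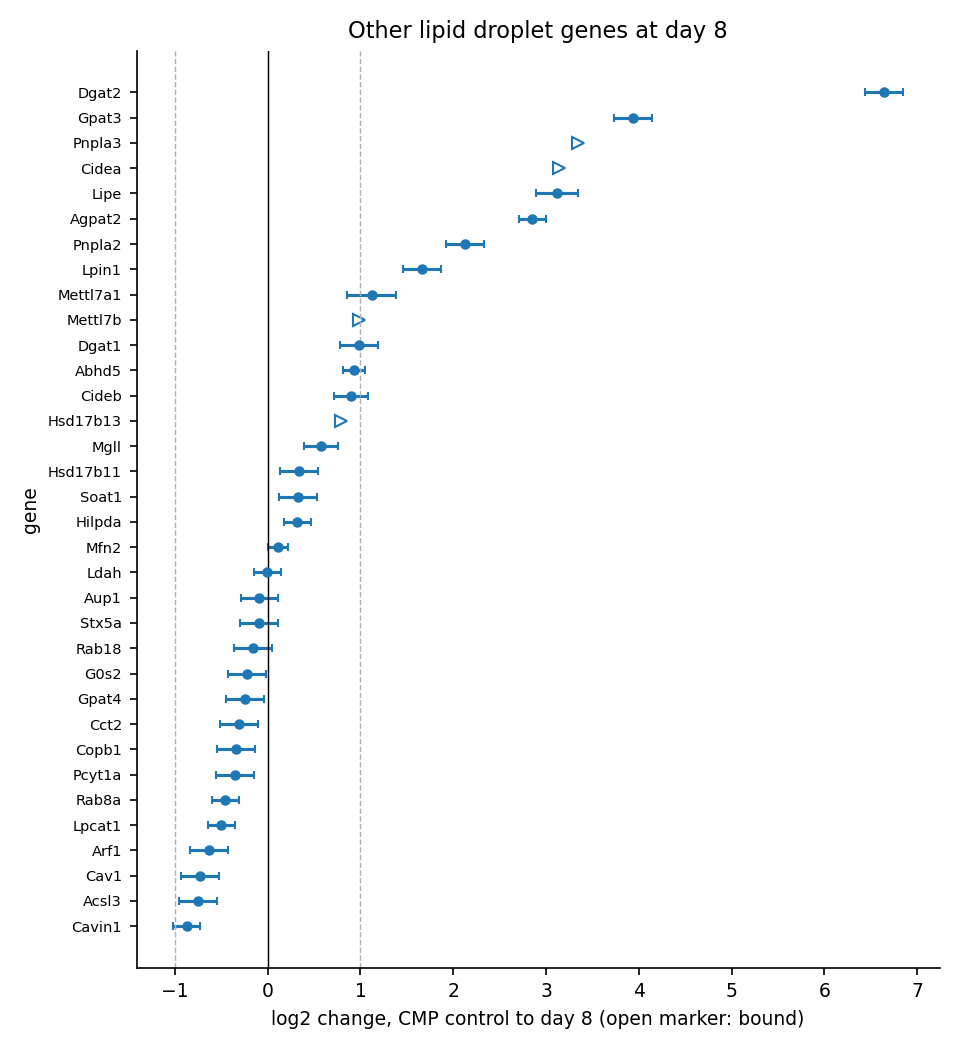
Log2 change from the CMP control to day 8 for the 34 other lipid droplet genes measured, with ± 1 SD of the array error for 30 and open arrows at the lower bound for 4 that were dim in the control. Dgat2 leads at 6.65, and no gene lies beyond 2-fold on the lower side.

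Genes that act with Plin1 in lipolysis differed in course. The lipase genes rose by day 8, Pnpla2 by 2.13 ± 0.20 (1898, 2622, 5642 and 8755) and Lipe by 3.12 ± 0.23. Abhd5 and G0s2 changed by less than 2-fold at day 8. Abhd5 (CGI-58), the lipase activator that Plin1 holds, read 597, 730, 1043 and 1203, a change of 0.93 ± 0.12 at day 8. G0s2, an inhibitor of the lipase made from Pnpla2, read 3879, 1238, 3321 and 3510. It was down at day 4 by 1.64 on the log2 scale and back within 0.22 of the control at day 8. Abhd5, G0s2 and Pnpla2 were chosen for mention here after their values were seen.

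Of 8 genes that regulate the members or act with those regulators, 3 were at least 2-fold higher at day 8 and 1 was lower, where 11.9% and 10.5% of all genes were. Pparg, the main nuclear receptor of fat cells, read 769, 9596, 11592 and 11591, a log2 rise of 3.64 by day 4 and of 3.84 ± 0.06 by day 8. Cebpa, its partner in adipocyte gene control, read 212, 1047, 2344 and 1991 and rose by 3.15 ± 0.20 at day 8, with 2.31 reached by day 4. Both were up on the day 4 array, on which Plin4 was already high, Plin1 low and Cidec at or near background. Srebf1, a regulator of lipid synthesis, read 226, 173, 546 and 831 and was higher only from day 6, with 1.80 ± 0.20 at day 8. Cebpd, which acts early in adipocyte formation, read 64498, 26096, 11023 and 8869, a change of -2.94 ± 0.20. The other 4 changed by less than 2-fold at day 8: Cebpb by -0.52 ± 0.20, Ppara by 0.22 ± 0.10, Rxra by 0.16 ± 0.15 and Ppard by 0.10 ± 0.20.

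Neighbours on the chromosome, looked at after the members' values were known, were probes within 30 kb in mm9. Plin4 and Plin5 lie beside each other on chromosome 17, where Plin4 rose by 7.45 ± 0.21 by day 8 and Plin5 was at least 1.88-fold higher. Around them Hdgfl2 changed by -0.62 ± 0.20, Lrg1 by -0.56 ± 0.23 and Sema6b by -2.02 ± 0.25. Beside Plin1 on chromosome 7, Pex11a, which encodes a peroxisomal membrane protein, read 1329, 3254, 5862 and 6701 and rose by 2.26 ± 0.07. On the other side of Plin1, Ticrr changed by -1.58 ± 0.20. The Cidec neighbours Rpusd3 and Jagn1 stayed within 0.1 of the control at day 8 on the log2 scale, and so did Fem1a and Ticam1 beside Plin3. Ttll3, also within 30 kb of Cidec, had probes that changed by 1.24 ± 0.29 and 0.56 ± 0.20 and another that was not well above background at day 8.

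**Figure D5:**
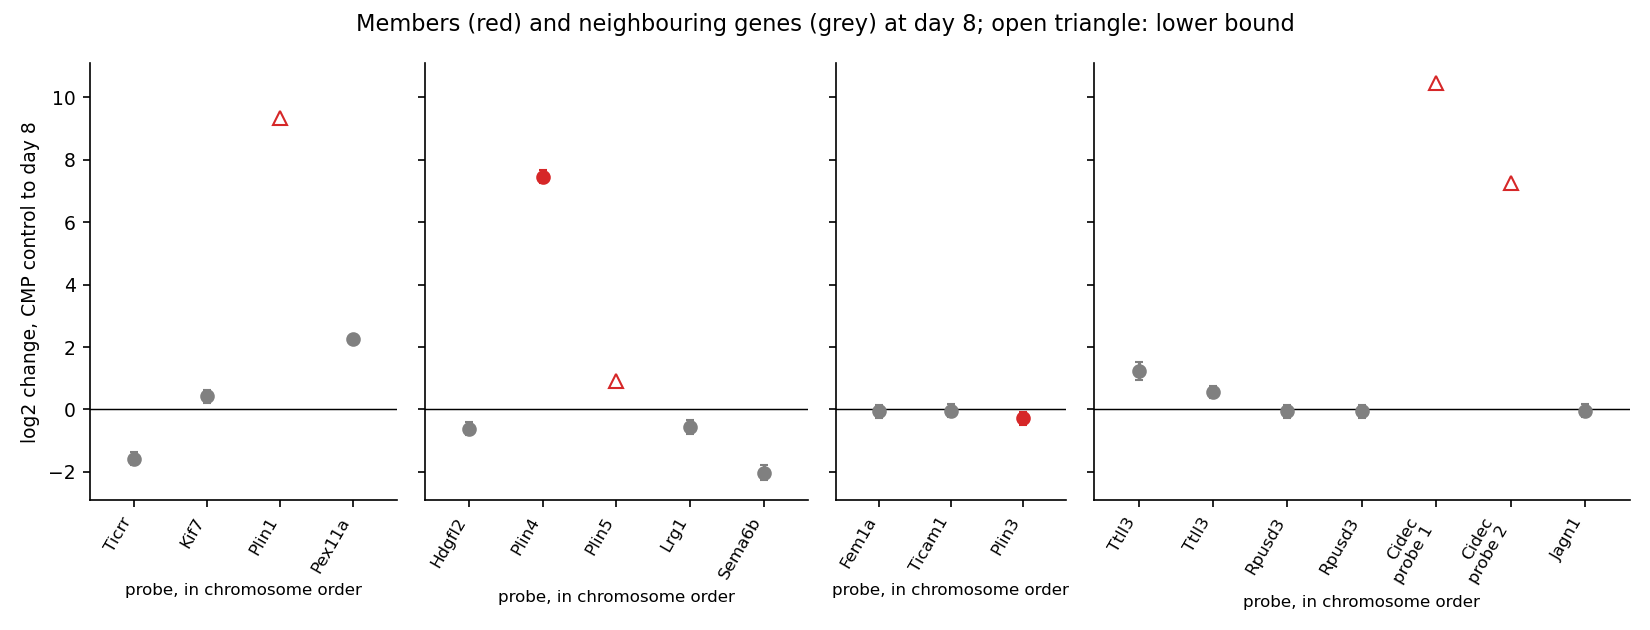
Log2 change from the CMP control to day 8 of members (red) and named neighbouring genes (grey) around Plin1, Plin4 and Plin5, Plin3, and Cidec, each probe a point with ± 1 SD of the array error, ordered along the chromosome and not to scale. Open triangles are lower bounds. Plin4 at 7.45 stands between Hdgfl2 and Plin5, and Pex11a at 2.26 is the highest of the named neighbours.

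Markers of the cell types that the cultures could hold moved as well. Of 9 adipocyte markers, 5 were well above background in the control and 9 at day 8, and their summed level, in units of each array's 75th percentile, was 6.64, 21.1, 142 and 354 over the 4 arrays. Adipoq, Cfd and Cd36 were not well above background in the control and were so at day 4, and Lep reached that level at day 8 alone. At day 4, 4 of the 9 were at least 2-fold higher than in the control and 1 was lower, where 9.73% and 8.12% of all genes were. The lower one was Lpl, which read 1218, 395, 8291 and 17916. The day 4 sum was mostly Fabp4, which read 944, 7315, 26777 and 54886. All 8 mesenchymal progenitor markers were well above background on every array, with sums of 1373, 1059, 1032 and 1079, and Ly6a, which encodes the Sca-1 antigen that defines these cells, read 9791, 40029, 50651 and 66890. Ly6a was the only one of the 8 at least 2-fold higher at day 8, and Thy1 and Eng were lower. Of all genes, 11.9% were higher and 10.5% lower, so that the count higher was near the share of all genes. Thy1 changed by -1.78 ± 0.20 and Eng by -1.19 ± 0.20, and the median of the list was -0.39 on the log2 scale. Macrophages also hold Plin2-coated droplets. Of 9 macrophage markers 7 were well above background in the control and 5 or 6 later, Laptm5 and Mrc1 on no array, and the sum was 14.1, 9.58, 9.27 and 10.9. Within this list Cd68, the mean of 2 probes, read 26.5, 54.5, 77.9 and 82.8, a change of 1.56 ± 0.42 at day 8 with dim values as measured. With dim values set at their bound, Cd68 did not reach 2-fold. Lyz2 changed by -2.58 ± 0.25. No marker of this list was called 2-fold higher at day 8 and 1 was lower, where 11.9% and 10.5% of all genes were. Heart muscle makes Plin5. Of 10 cardiomyocyte markers 4, 7, 8 and 6 were well above background, Actn2 and Pln on no array, and the sum was 12.1, 4.91, 6.93 and 4.32, in the control mostly Tnnt2, which changed by -1.60 ± 0.20 at day 8. Of the 8 measured, 2 were at least 2-fold higher at day 8 and 1 was lower, where 11.9% and 10.5% of all genes were. The higher ones were Myl2, by 1.65 ± 0.27, and Tnni3, at least 3.28-fold. Myh6 was at least 1.75-fold higher, and like Tnni3 it was not well above background in the control. Signals of Myl2, Tnni3 and Myh6 at day 8 were low (58.3, 38.1 and 19.3), and Myl2 was highest at day 4 (128). Myh7, Nppa, Ryr2 and Ckm were not called at 2-fold at day 8. The part of any of these cell types in the members' changes was not tested.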

How the data were processed

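Per the labels, 250 ng of total RNA per sample was labelled with Cy3. The authors scanned the arrays with Feature Extraction (10.7.3.1 in the file headers, 9.5.3 in the submitters' processing notes) and deposited, for each spot, a background-subtracted processed intensity, its error and flags. The authors also deposited a table of normalized log2 values, which equals the log2 processed signal less a constant for each array. Its column medians were -4.22, -4.08, -4.09 and -3.96. All arrays were on 1 slide and read in 1 scan.

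Control and outlier spots were left out, and no spot was saturated. For each of 55681 probes, log2 processed signals were averaged across spots and scaled to the 75th percentile of their array (389, 388, 406 and 411). Per array, 31495 to 33210 probes were well above background. Kept were 35540 probes that passed this mark on 1 array or more. Names came from the RefSeq table of GRCm38.p6 (26762 probes by accession, 3819 by symbol, 639 by synonym and 24461 unnamed). Where several probes were kept (5015 of 16657 genes), they were averaged. Coordinates of probes come from the array files (mm9); the exon or UTR was not looked up here. A change was called at 2-fold with the brighter array well above background and a dim value raised to its array's lowest signal well above background. Errors combine those of both arrays.

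The members and gene lists were chosen with earlier results of these data known. Named are all members and their probes; the 3 genes nearest to each member that ranged over at least 2 on the log2 scale; the 4 largest measured rises and falls among other lipid droplet genes (none fell 2-fold at day 8); all regulators; and marker genes as counts and ranges. Genes outside this rule were chosen after their values were seen. Alternatives were the array median as scale, quantile normalization, normexp correction (offset 50) with it, the authors' values, other filters and floors on dim probes, the brightest probe, and thresholds of 1.5-fold and 4-fold. Software versions were Python 3.11.15, numpy 2.4.6, pandas 2.3.3, matplotlib 3.10.9, limma 3.58.1 and R 4.3.3. Calls were also run on simulated data, but no outcome of that run is reported here. It therefore lends no weight to calls near 2-fold or to bounds for genes dim in the control, such as Plin1, Plin5 and Cidec.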

Additional observations from a re-analysis of the deposited data

How the results depend on the processing

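Of 75 values of the members' counts and medians and of the list counts under alternative settings, 57 stayed close to the reported ones and 18 moved. Some of the 57 stayed close by construction. The authors' values differ from the processed signal by a constant for each array, close to the 75th percentile scale used here. Counts with a floor on dim values repeat the rule of the main calls. A threshold of 4-fold left 3 members higher at day 6 and 3 at day 8, namely Plin1, Plin4 and Cidec. A filter that asks for detection on all 4 arrays leaves 5 members to count. It also gave 3 higher at day 6 and 3 at day 8, but these were Plin2, Plin4 and Fitm2. That filter gave medians of 0.85, 1.33 and 1.33 at days 4, 6 and 8. The median moved to 0.39, 1.32 and 1.34 with normexp correction and quantile normalization, and to 0.61, 1.37 and 1.38 with a floor on dim values, which by its construction shrinks the changes of Plin1, Plin5 and Cidec. Without a filter on dim probes, which adds Fitm1, it was 1.42 at day 6 and 1.70 at day 8, and with the brightest probe of each gene it was 1.41 at day 4. The array median as scale gave 1.81 at day 8 and 2 other lipid droplet genes 2-fold lower in place of 0. It also moved the median of all genes to -0.15, -0.17 and -0.30 at days 4, 6 and 8. This setting shifts all genes of an array by the same amount, so the members' place relative to all genes could not change. With dim values as measured, a setting chosen after seeing the data, 4, 6 and 6 members were higher. The share of all genes is given here only for the main settings, so counts under other settings have none beside them. Of 183 values of single members, 36 moved and 6 changed sign, those of Plin3 and of Bscl2 at day 4. Under normexp with quantile normalization, Plin1 changed by 0.99 at day 4, under 2-fold, and Cidec by 6.37 at day 8. Apart from what these settings do by construction, the cause was not tested. No paired analysis was possible because there was a single array for every condition. Plin1, Plin5 and Cidec below background in the control have only bounds, and Fitm1 has no fold.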

Other observations

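Of 5 probes for an intergenic noncoding transcript within 30 kb of the Plin2 probe, 2 were well above background on all 4 arrays, with low signals. The brighter at day 8 read 21.6, 66.0, 71.0 and 80.2 on the control, day 4, day 6 and day 8 arrays, a log2 change of 1.81 ± 0.26 at day 8, and the other read 21.7, 30.2, 33.9 and 37.1, a change of 0.70 ± 0.27. The 3 probes not well above background in the control were at least 3.41-fold, 1.81-fold and 1.45-fold higher at day 8. Near Fitm2, 2310001K24Rik was not well above background in the control and was at least 1.68-fold higher at day 8. Beside Bscl2, Lrrn4cl changed by -1.32 ± 0.20, against 0.36 ± 0.20 for Bscl2 itself. Near Fitm1, whose own probe was dim, Emc9 changed by 1.05 ± 0.20 and Psme1 by 0.98 ± 0.06 at day 8. These probes were chosen after their values were seen.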
